A study of Homo sapiens with 8 samples.

Results

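The NF-kB subunits and a set of classical NF-kB target genes were followed in KG1a cells, a long-established line from a human acute myeloid leukemia that is immature and carries CD34 on its surface. The genes were chosen by symbol: 5 subunits (NFKB1, NFKB2, REL, RELA and RELB) and 5 targets (NFKBIA, TNFAIP3, BIRC3, TRAF1 and CXCL8). Earlier results of these data were known when the choice was made. All 10 were among the 25168 genes of the count table, and all 10 were among the 12843 genes that passed the filter on low counts and were tested. RNA sequencing covered 4 groups of 2 libraries each, all of the same cell line after 48 h: 5 µM TAK-981 plus 1 µM venetoclax, 5 µM TAK-981, 1 µM venetoclax, and DMSO vehicle. Venetoclax blocks BCL2, which keeps cells from apoptosis, and TAK-981 blocks the activating enzyme for SUMO, a small protein that cells couple to many others. The study asks whether blocking SUMO attachment makes leukemia cells more sensitive to venetoclax. One cell line, one dose of each drug and one time point limit what the groups can stand for.

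NF-kB is a family of transcription factors that act as pairs of subunits. In resting cells the pairs are held in the cytoplasm by IkB proteins, and stimuli such as TNF make the IkB kinases mark these inhibitors for destruction, so that the pairs move to the nucleus (the canonical route, mainly RELA with the product of NFKB1). A second, noncanonical route runs through processing of the NFKB2 protein and pairs it with RELB. Several targets feed back on the pathway, and others protect cells from death. SUMO has been found attached to the IkB protein encoded by NFKBIA and to the regulatory subunit of the IkB kinase complex.

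The libraries held 13204588 to 26304900 counts. The 2 venetoclax libraries stood further apart than those of the other groups, with a median difference between replicates of 0.258 log2 units over 9858 genes of at least 5 CPM (the count scaled to the total of its library), against 0.0867 to 0.0993 in the others. The test pooled the spread of all 4 groups, which is less than the venetoclax libraries showed and more than those of the other groups showed. For this reason values without venetoclax libraries are given beside the results. Where a fit leaves out a single library, its p-values hold no spread within that group and take it from the other groups. The labels do not state whether replicate libraries stem from separate cultures, and p-values therefore reflect a spread between libraries that may be technical only. CD34 stood at 953 to 1520 CPM and PTPRC, the pan-leukocyte CD45 gene, at 429 to 830 CPM in every library, while the epithelial markers EPCAM and KRT19 were at 0. Of the other markers looked up for KG1a, SPN stood at 699 to 1030 CPM and FGFR1 at 87 to 110 CPM. CD7 stood at only 7.84 to 15.2 CPM, PROM1 at 0.74 to 2.19 CPM and KIT at 0.688 to 1.62 CPM. FLT3, a marker of immature myeloid cells, reached at most 0.0869 CPM. The T cell markers CD3D and CD3E summed to 23.5 and 27.4 CPM with both drugs and to 30.7 to 50 CPM in the other libraries. The part of these T cell markers in the results below was not tested.

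By edgeR over the 8 libraries with the filter on low counts, 1 subunit gene, NFKB2, passed against vehicle. NFKB2 was lower with venetoclax alone and overlapped vehicle when TAK-981 was added, and RELB too had its lowest values with venetoclax alone. NFKB2, the precursor subunit of the noncanonical route (chromosome 10, 102394110 to 102402529, hg38, plus strand), had 30.9 and 33.8 CPM with both drugs, 33.3 and 32.9 CPM with TAK-981, 14.6 and 16.9 CPM with venetoclax, and 31.3 and 28.7 CPM with vehicle. The venetoclax libraries were thus below all of the others, and those with both drugs overlapped TAK-981 and vehicle. Against vehicle NFKB2 fell by 0.92 log2 units with venetoclax (SE 0.128, adjusted p = 0.00329, edgeR's quasi-likelihood test), and the value was -0.83 without venetoclax replicate 1 and -1.04 without replicate 2. With only the 4 libraries of these groups it was -0.95 and no longer passed (adjusted p = 0.0534). Both drugs against venetoclax gave a rise of 1.03 (SE 0.129, adjusted p = 0.000658), or 2.04-fold.

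RELB, the partner of processed NFKB2 (chromosome 19, 45001430 to 45038198, plus strand), had 18.8 and 19.7 CPM with both drugs, 15.5 and 18.4 CPM with TAK-981, 6.78 and 10.6 CPM with venetoclax, and 13.5 and 14.3 CPM with vehicle. All 4 libraries with TAK-981 were above vehicle and both venetoclax libraries were below it. Against venetoclax RELB rose with both drugs by 1.12 (SE 0.207, adjusted p = 0.00355), and by 0.85 and 1.49 without venetoclax replicate 1 and 2. The difference of venetoclax from vehicle, -0.65 (SE 0.206), missed the threshold (adjusted p = 0.0541). It passed with DESeq2 (-0.67, adjusted p = 0.0197) and in 4 other settings of edgeR over the 8 libraries (adjusted p = 0.00463 to 0.049). It did not pass with limma-voom (-0.64, adjusted p = 0.0534) or with only the 4 libraries of venetoclax and vehicle (-0.68, adjusted p = 0.151). The value was -0.38 and -1.04 without venetoclax replicate 1 and 2, and -0.69 and -0.61 without vehicle replicate 1 and 2.

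RELA encodes the main activating subunit of the canonical route (chromosome 11, 65653596 to 65663094, minus strand). It had 90.6 and 89.5 CPM with both drugs, 79.5 and 84.6 CPM with TAK-981, 62.8 and 76.4 CPM with venetoclax, and 77.3 and 76 CPM with vehicle. The only difference that passed was that of both drugs over venetoclax, 0.37 (SE 0.112, adjusted p = 0.0277). That call was lost on leaving out each of 5 libraries in turn. The value was 0.35 and 0.37 without replicate 1 and 2 of the combination (adjusted p = 0.127 and 0.11), and 0.36 without TAK-981 replicate 1 (adjusted p = 0.0564), vehicle replicate 1 (0.0554) or vehicle replicate 2 (0.0557).

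NFKB1, whose product pairs with RELA (chromosome 4, 102501329 to 102617302, plus strand), had 106 and 114 CPM with both drugs, 98.7 and 92.8 CPM with TAK-981, 118 and 136 CPM with venetoclax, and 118 and 117 CPM with vehicle. REL, a subunit known mainly from lymphoid cells (chromosome 2, 60881521 to 60931610, plus strand), had 59.9 and 62.8 CPM with both drugs, 85.3 and 86.4 CPM with TAK-981, 95 and 57.6 CPM with venetoclax, and 81.8 and 75 CPM with vehicle. Neither passed in any of the comparisons by edgeR over the 8 libraries with the filter on low counts. With no filter REL passed for both drugs over vehicle (-0.37, adjusted p = 0.0257) and over TAK-981 (-0.50, adjusted p = 0.00338). The REL value in venetoclax replicate 1 was above every other library and that in replicate 2 was below every other library, so the group mean describes neither of them. Against vehicle REL was -0.44 without venetoclax replicate 1 and 0.28 without replicate 2. For both drugs over venetoclax REL was 0.08 without replicate 1 and -0.64 without replicate 2, and -0.31 over all libraries. NFKB1 was -0.31 without replicate 1 and -0.11 without replicate 2, and -0.21 over all libraries.

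**Figure D1:**
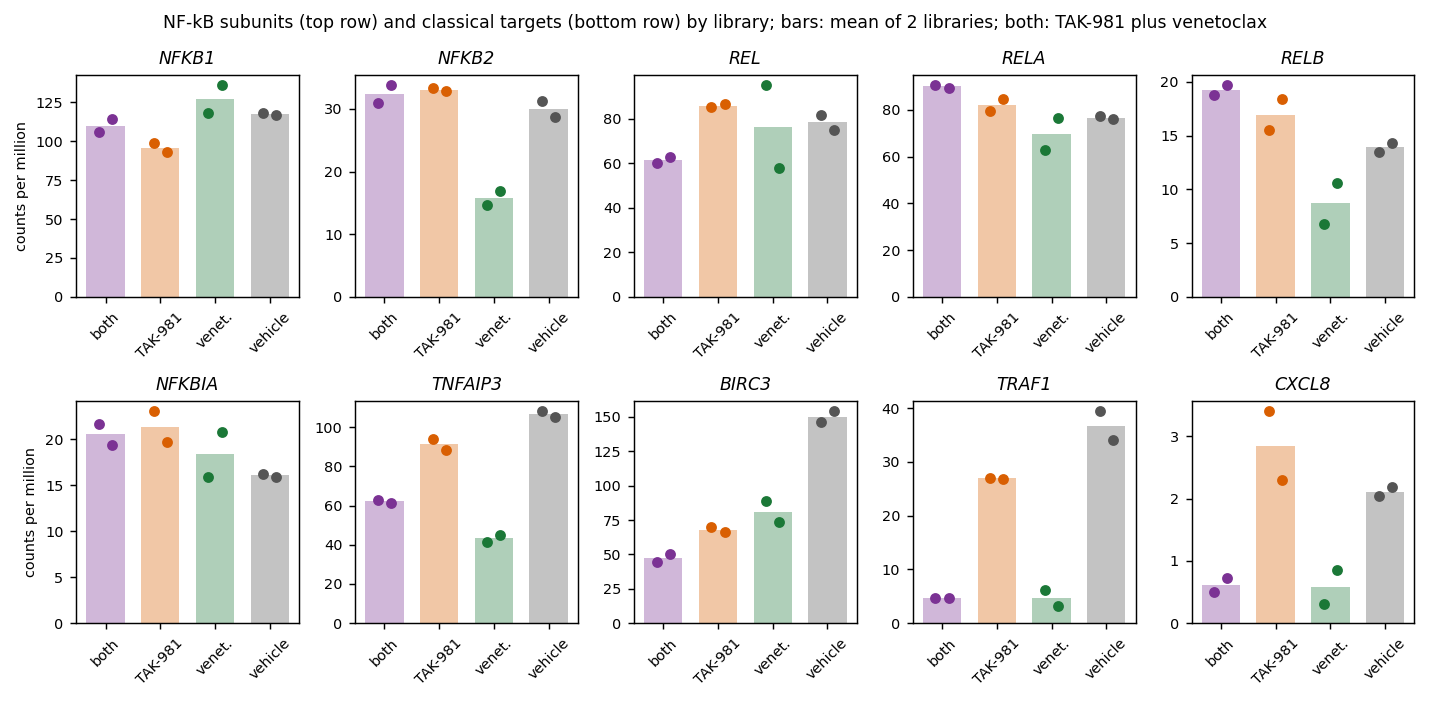
CPM (vertical axes, from 0) of the 5 subunits (upper row) and 5 targets (lower row) in each library, with bars at the mean of 2 libraries, for TAK-981 plus venetoclax (both), TAK-981, venetoclax (venet.) and vehicle. NFKB2 and RELB are lowest in the venetoclax libraries, and TRAF1, CXCL8 and TNFAIP3 are low in both groups that received venetoclax.

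Among the targets, TRAF1, CXCL8 and TNFAIP3 were low wherever venetoclax was given, BIRC3 was low with each drug and lowest with both, and NFKBIA was not called over the 8 libraries. TRAF1 encodes an adaptor of TNF receptors that also binds the BIRC3 protein (chromosome 9, 120902393 to 120929173, minus strand). It had 4.66 and 4.73 CPM with both drugs, 27.1 and 26.8 CPM with TAK-981, 6.24 and 3.16 CPM with venetoclax, and 39.4 and 34 CPM with vehicle. The 4 libraries with venetoclax did not overlap the 4 without it. TRAF1 fell by 2.97 log2 units with both drugs (SE 0.256, adjusted p = 0.000136), or to 0.128 of vehicle, which ranked 25 from the lowest of 12843 genes. With venetoclax alone it fell to 0.122 of vehicle, a log2 value of -3.53 without venetoclax replicate 1 and -2.55 without replicate 2. Both drugs against TAK-981 gave -2.52 (SE 0.256, adjusted p = 0.00164), and both drugs against venetoclax gave 0.07 (SE 0.283, adjusted p = 0.864). That last value was 0.56 without venetoclax replicate 1 and -0.42 without replicate 2.

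TNFAIP3 encodes a ubiquitin-editing enzyme that shuts the pathway off again (chromosome 6, 137867188 to 137883312, plus strand). It had 62.9 and 61.3 CPM with both drugs, 94.1 and 88.3 CPM with TAK-981, 41.4 and 45.1 CPM with venetoclax, and 108 and 105 CPM with vehicle. The 4 groups did not overlap, with venetoclax alone at the bottom. TNFAIP3 fell by 0.78 with both drugs (SE 0.0951, adjusted p = 0.000634) and was -1.30 with venetoclax (SE 0.0966, adjusted p = 0.000798). Both drugs stood 0.52 above venetoclax alone (SE 0.0968, adjusted p = 0.00353) and gave -0.55 against TAK-981 alone (SE 0.0952, adjusted p = 0.01). The last call ended without either replicate of the combination (-0.58 and -0.54, adjusted p = 0.0766 and 0.123) or of TAK-981 (-0.51 and -0.61, adjusted p = 0.128 and 0.0832). LOC100130476, a noncoding gene on the other strand, overlaps the first 1046 bases of TNFAIP3, and the strand setting of the counting is not given, so reads there cannot be told apart. Its counts were 4.67% to 9.01% of those of TNFAIP3 in each library, and it was also lower with venetoclax (-1.09, adjusted p = 0.0268).

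BIRC3 encodes a ubiquitin ligase that holds back cell death downstream of TNF receptors and restrains the noncanonical route (chromosome 11, 102317450 to 102339403, plus strand). It had 44.4 and 50.2 CPM with both drugs, 69.8 and 66.4 CPM with TAK-981, 88.9 and 73.5 CPM with venetoclax, and 146 and 154 CPM with vehicle. The 2 vehicle libraries were the highest and the 2 with both drugs the lowest. BIRC3 fell by 1.66 with both drugs (SE 0.12, adjusted p = 5.32e-05), by 1.14 with TAK-981 (SE 0.117, adjusted p = 0.000609) and by 0.89 with venetoclax (SE 0.117, adjusted p = 0.00277). Without venetoclax replicate 1 and 2 that last value was -1.02 and -0.75. It was the only one of the 10 genes to pass with TAK-981 alone. Both drugs gave -0.78 against venetoclax (SE 0.119, adjusted p = 0.00151). Against TAK-981 the value of -0.53 (SE 0.119, adjusted p = 0.0281) did not pass on leaving out each library in turn of the combination (-0.44 and -0.62), TAK-981 (-0.49 and -0.57) or vehicle (-0.53 and -0.53), where adjusted p ran from 0.0675 to 0.202.

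CXCL8, the neutrophil chemokine interleukin-8 (chromosome 4, 73740506 to 73743716, plus strand), was close to the limit of detection. It had 11 and 10 counts with both drugs, 79 and 43 with TAK-981, 4 and 22 with venetoclax, and 47 and 51 with vehicle, or 0.503 and 0.728, 3.4 and 2.3, 0.305 and 0.857, and 2.04 and 2.18 CPM in the same order. The libraries with venetoclax were again below all libraries without it. CXCL8 fell by 1.81 with both drugs (SE 0.435, adjusted p = 0.014) and by 1.70 with venetoclax (SE 0.42, adjusted p = 0.0221), which became -1.29 and -2.77 without venetoclax replicate 1 and 2. Against TAK-981 the combination gave -2.25 (SE 0.426, adjusted p = 0.0149). At this depth each of the 3 calls was lost without some of the libraries. The combination no longer passed against vehicle without its replicate 1 or 2 (-1.53 and -2.06, adjusted p = 0.122 and 0.0573) or without vehicle replicate 1 or 2 (-1.86 and -1.77, adjusted p = 0.0576 and 0.0752). Venetoclax no longer passed without vehicle replicate 1 or 2 (-1.75 and -1.65, adjusted p = 0.106 and 0.104), and the combination against TAK-981 did not pass on leaving out each library of these groups in turn (-1.93 to -2.50, adjusted p = 0.062 to 0.143).

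NFKBIA, the IkB protein that is itself a rapid target of NF-kB (chromosome 14, 35401511 to 35404749, minus strand), had 21.6 and 19.4 CPM with both drugs, 23 and 19.7 CPM with TAK-981, 15.9 and 20.8 CPM with venetoclax, and 16.2 and 15.9 CPM with vehicle. The 4 libraries with TAK-981 were above vehicle, by 0.36 log2 units with both drugs (SE 0.163, adjusted p = 0.137) and by 0.41 with TAK-981 (SE 0.162, adjusted p = 0.135). Without the 2 venetoclax libraries these values were 0.36 (adjusted p = 0.0221) and 0.42 (adjusted p = 0.0142) and passed. With venetoclax alone the value was 0.20 (SE 0.163, adjusted p = 0.404).

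The bases before the gene starts are shown for targets that moved and for NFKBIA, which was not called over the 8 libraries, to let the NF-kB binding motif be compared. The windows are RefSeq's (GRCh38.p14), 250 bases before each annotated start, found for 9 of the 10 genes, all but RELB, with 15 windows. They were searched on both strands for the kappaB decamer consensus GGGRNWYYCC (R is A or G, W is A or T, Y is C or T, N is any base). At least 1 match was held by 7 of the 15 windows, of 6 genes, against 5.21% of 35116 windows of all genes. The genes were picked as NF-kB subunits and classical targets, and some have several windows, so this share is descriptive only. Capitals mark the matches, and where a window runs into the deposited gene only the bases outside it are printed. NFKBIA lies at chr14:35404750-35404999 (minus strand), BIRC3 at chr11:102317234-102317449 (plus strand), TRAF1 at chr9:120929174-120929421 (minus strand) and CXCL8 at chr4:73740319-73740505 (plus strand).
NFKBIA: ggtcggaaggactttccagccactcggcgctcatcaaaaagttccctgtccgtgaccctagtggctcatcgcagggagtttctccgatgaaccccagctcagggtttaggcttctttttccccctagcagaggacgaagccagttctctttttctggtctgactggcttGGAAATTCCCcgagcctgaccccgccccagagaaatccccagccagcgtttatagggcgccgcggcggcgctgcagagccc
BIRC3: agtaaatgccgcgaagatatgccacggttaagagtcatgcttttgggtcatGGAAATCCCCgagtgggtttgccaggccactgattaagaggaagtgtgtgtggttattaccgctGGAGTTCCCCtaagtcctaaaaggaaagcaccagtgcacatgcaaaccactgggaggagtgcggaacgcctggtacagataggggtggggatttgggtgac
TRAF1: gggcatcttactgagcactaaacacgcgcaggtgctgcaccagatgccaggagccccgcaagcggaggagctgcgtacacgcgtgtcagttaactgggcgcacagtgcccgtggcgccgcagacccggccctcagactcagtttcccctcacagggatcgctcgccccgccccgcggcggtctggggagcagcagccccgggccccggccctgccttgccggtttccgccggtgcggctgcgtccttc
CXCL8: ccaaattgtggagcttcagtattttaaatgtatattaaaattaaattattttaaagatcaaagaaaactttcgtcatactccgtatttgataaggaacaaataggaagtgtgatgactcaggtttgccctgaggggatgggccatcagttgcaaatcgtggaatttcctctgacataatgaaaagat

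BIRC3 held 2 matches and NFKBIA 1, while none of the 3 windows of TRAF1 and not the window of CXCL8 held the exact decamer. The CXCL8 window holds tggaatttcc, which differs from the consensus only in its first base and was not counted. Lack of an exact match does not show lack of a binding site. The motif TGANTCA, which AP-1 factors bind, matches its own opposite strand. It was found at 1 site in the CXCL8 window, at bases 137 to 131 before the start, and in 6.57% of all windows. Matches inside the deposited genes of TNFAIP3, REL and NFKB2, and the match just before that of NFKB1, are shown with their neighbouring bases, 30 in all, for TNFAIP3 (chr6:137867188-137867217), NFKB1 (chr4:102501300-102501329), REL (chr2:60881517-60881546) and NFKB2 (chr10:102394461-102394490 and chr10:102395674-102395703), each on the plus strand. NFKB2 held matches in 4 such stretches, of which the most upstream and the most downstream are shown.
TNFAIP3: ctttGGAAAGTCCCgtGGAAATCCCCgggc
NFKB1: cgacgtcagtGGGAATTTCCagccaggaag
REL: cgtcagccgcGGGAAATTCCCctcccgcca
NFKB2, upstream match: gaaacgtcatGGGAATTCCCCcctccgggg
NFKB2, downstream match: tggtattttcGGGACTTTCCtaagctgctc

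The genes with a match thus included NFKB2 and TNFAIP3, which fell with venetoclax, and NFKB1 and NFKBIA, which were not called over the 8 libraries. The runs of 11 capitals in REL and NFKB2 are overlapping matches on opposite strands. These letters describe the windows and do not show binding.

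The 10 genes, and the pathway lists below, were chosen with earlier results of these data known. Shares of calls set against all genes are therefore not independent comparisons. Counted together, 4 of the 10 genes passed with both drugs against vehicle, all lower, against 27.9% of all genes tested in either direction and 15.1% lower. All 4 were targets (TNFAIP3, BIRC3, TRAF1 and CXCL8), and the median log2 fold change of the 5 targets was -1.66, that of the 5 subunits 0.11 and that of all 12843 genes 0.01. None of the subunits passed by edgeR with the filter on low counts, DESeq2 or limma-voom, and with no filter edgeR called 1, REL (-0.37, adjusted p = 0.0257). With the filter, by edgeR's test, 1 of them, RELB at 0.47, was under 0.05 before adjustment (adjusted p = 0.113). Without both venetoclax libraries 8 of the 10 passed, against 47.8% of all genes in that fit, with REL (-0.36, adjusted p = 0.00151) added to the lower genes, and RELA (0.23, adjusted p = 0.0149), RELB (0.47, adjusted p = 0.00605) and NFKBIA higher.

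With TAK-981 alone 1 of the 10 passed, BIRC3, against 12.2% of all genes (5.98% higher and 6.18% lower), a share near that background. The median was -0.23 for the targets, 0.13 for the subunits and 0 for all genes. Again none of the subunits passed by any of the 3 tools. NFKB1, at -0.29, was the 1 under 0.05 before adjustment by edgeR (adjusted p = 0.096). Without both venetoclax libraries 5 passed, against 30.2% of all genes in that fit: BIRC3, NFKB1 (-0.29, adjusted p = 0.00549), TNFAIP3 (-0.23, adjusted p = 0.025) and TRAF1 (-0.45, adjusted p = 0.00454) lower, and NFKBIA higher.

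With venetoclax alone 5 of the 10 passed, all lower (NFKB2, TNFAIP3, BIRC3, TRAF1 and CXCL8), against 20.8% of all genes in either direction and 9.44% lower. The median was -1.30 for the targets, -0.14 for the subunits and 0 for all genes. With only the 4 libraries of venetoclax and vehicle TNFAIP3, BIRC3 and TRAF1 still passed, 3 in all, against 1.63% of all genes in that fit. Without venetoclax replicate 2 RELA was -0.29, RELB -1.04 and REL 0.28, and without replicate 1 they were 0, -0.38 and -0.44. The 3 comparisons with vehicle share its 2 libraries.

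**Figure D2:**
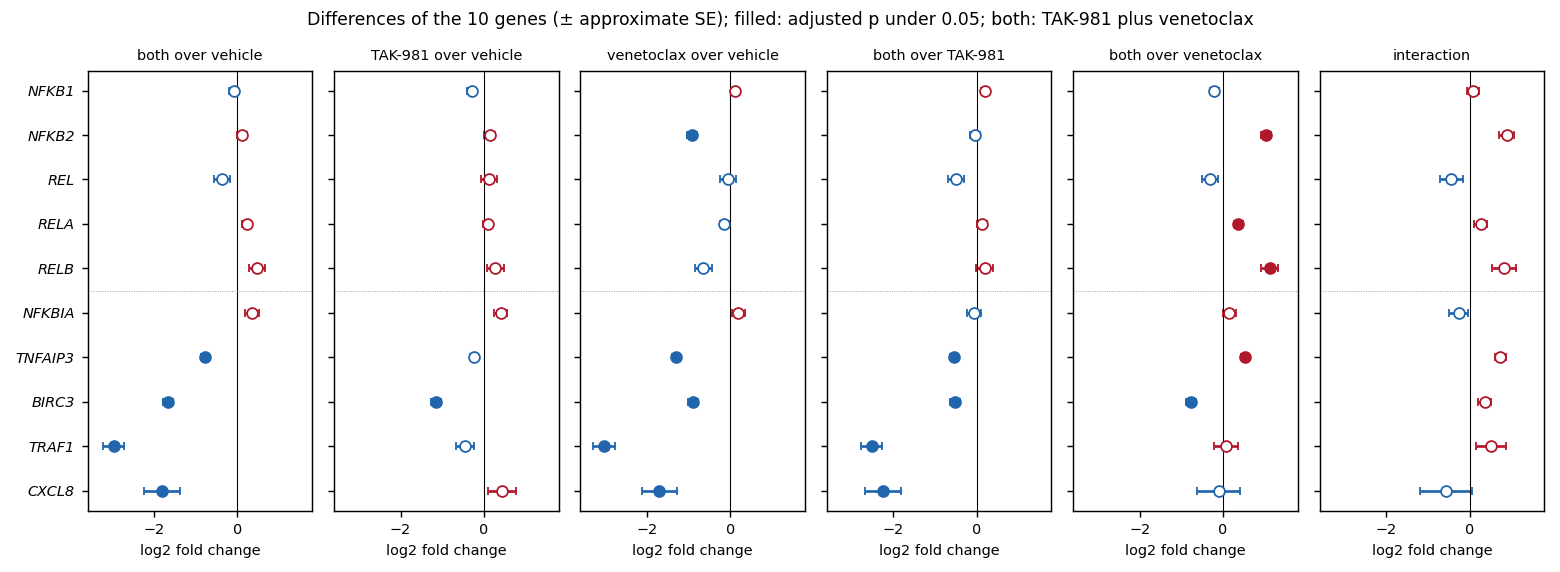
Log2 fold change (horizontal axes) of each gene with its approximate SE in the 5 comparisons of 2 groups and in the interaction, for which both means TAK-981 plus venetoclax and filled points passed at an adjusted p under 0.05. With both drugs over venetoclax NFKB2, RELA, RELB and TNFAIP3 are above 0 and BIRC3 is below it, while over TAK-981 the filled points are 4 targets below 0.

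The 2 drugs were also compared with the combination. Over venetoclax alone, both drugs gave 5 calls among the 10 genes, against 39.6% of all genes: NFKB2, RELB, TNFAIP3 and RELA higher and BIRC3 lower, with 17.6% of all genes higher and 22% lower. Over TAK-981 alone, both drugs gave 4 calls, all lower and all targets (TNFAIP3, BIRC3, TRAF1 and CXCL8), against 8.8% of all genes and 6.03% lower. On leaving out each library of the combination and of TAK-981 in turn, only TRAF1 passed in that comparison. No subunit passed over TAK-981 by edgeR with the filter on low counts, DESeq2 or limma-voom. REL, at -0.49, was the 1 under 0.05 before adjustment by edgeR (adjusted p = 0.157), and with no filter edgeR called it (-0.50, adjusted p = 0.00338). Without both venetoclax libraries, a fit that called 28.8% of all genes, REL passed (-0.49, adjusted p = 0.000307), as did NFKB1 (0.20, adjusted p = 0.0467).

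The interaction, which subtracts the TAK-981 effect in cells without venetoclax from that in cells given it, tests whether the drugs added up on the log scale. By edgeR 0 of the 10 genes passed, and 0.0311% of all genes did. Among the 10, 3 had an unadjusted p under 0.05, each positive: NFKB2 at 0.89 (SE 0.178, adjusted p = 0.108), TNFAIP3 at 0.74 (SE 0.135, adjusted p = 0.0979) and RELB at 0.83 (SE 0.286, adjusted p = 0.19). DESeq2 called 2, NFKB2 (0.91, adjusted p = 0.00573) and TNFAIP3 (0.77, adjusted p = 0.00251), against 2.59% of all genes, and limma-voom called 0. Without a filter on low counts edgeR called all 3, against 6.06% of all genes. Leaving out 1 venetoclax library raised the share of all genes called to 5.4% without replicate 1 and 33.9% without replicate 2. NFKB2 and TNFAIP3 also passed without venetoclax replicate 1 (0.79 and 0.68) and without replicate 2 (0.98 and 0.79). In these fits the remaining venetoclax library is assumed to vary like the other groups. Neither gene passed in any fit that left out a library of another group. BIRC3 (0.49) and TRAF1 (1.01) passed as well without venetoclax replicate 1, and REL (-0.78), RELA (0.41) and RELB (1.21) without replicate 2. The TRAF1 value without replicate 2 was 0.02.

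Levels were compared between genes per kilobase of the deposited gene length (CPM per kb). In vehicle the order of the mean levels was TNFAIP3 21.2 ± 0.338, BIRC3 19.9 ± 0.766, NFKB1 18.8 ± 0.0793, RELA 14 ± 0.178, REL 6.97 ± 0.429, NFKBIA 6.78 ± 0.109, NFKB2 6.72 ± 0.417, TRAF1 5.7 ± 0.59, RELB 4.6 ± 0.185 and CXCL8 0.929 ± 0.0422 (SD, n = 2). REL, NFKBIA and NFKB2 overlapped in their libraries and cannot be ordered, whereas the other neighbours in this order did not overlap. With both drugs NFKB1 (17.7 ± 0.915) and RELA (16.5 ± 0.146) led, and BIRC3 (6.3 ± 0.544) was at the level of RELB (6.37 ± 0.193). The level of TRAF1 per kb was 0.73 ± 0.00766 with both drugs, 4.19 ± 0.0255 with TAK-981, 0.73 ± 0.339 with venetoclax and 5.7 ± 0.59 with vehicle.

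The summed length-scaled level of the 5 subunits was 52.1 and 54.4 with both drugs, 50.6 and 51.5 with TAK-981, 44.5 and 48.3 with venetoclax, and 51.8 and 50.5 with vehicle. The venetoclax libraries were the lowest and the 2 with both drugs the highest. The ratio of RELA to NFKB1 per kb was 0.975 and 0.895 with both drugs, 0.92 and 1.04 with TAK-981, 0.606 and 0.641 with venetoclax, and 0.75 and 0.741 with vehicle. The 4 libraries with TAK-981 were above vehicle in this ratio, and both venetoclax libraries were below it. In bulk RNA, fewer cells that express a gene and less RNA per cell cannot be told apart.

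**Figure D3:**
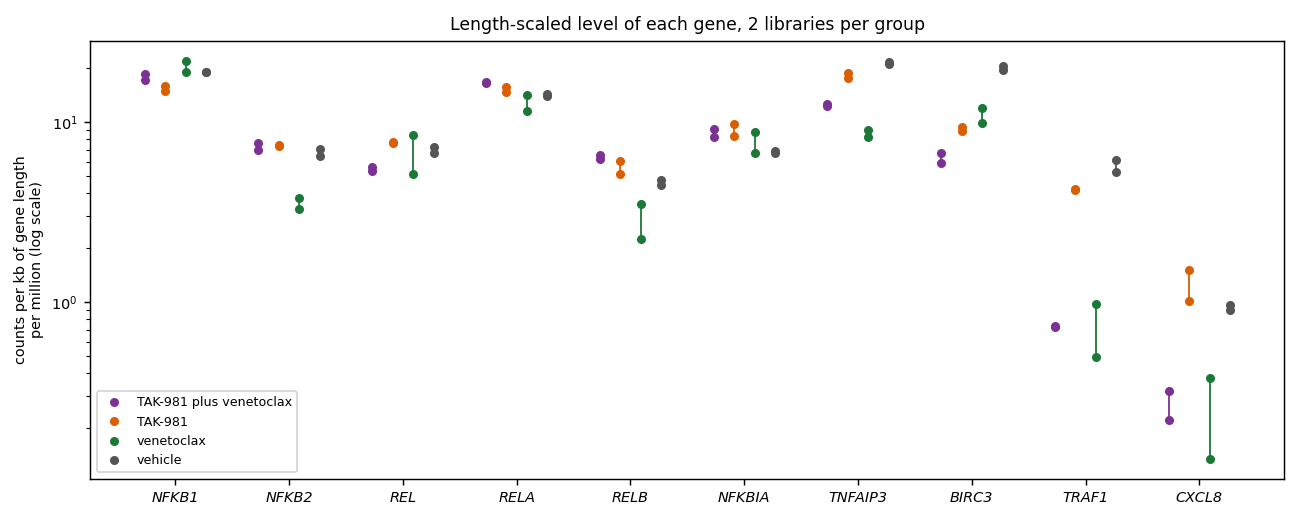
Level of each gene in CPM per kb of gene length (log axis), with 1 point per library and a line joining the 2 libraries of a group, in the order TAK-981 plus venetoclax, TAK-981, venetoclax and vehicle. TRAF1 and CXCL8 stand lowest in the 2 groups with venetoclax, and REL and RELB show the widest gap between venetoclax libraries among the subunits.

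Beyond these 10 genes, 110 other pathway genes were listed by role, and 108 matched the table. Of these, 83 were tested. With both drugs 26 passed, 12 higher and 14 lower (31.3%, against 27.9% of all genes). With TAK-981 8 passed, 3 higher and 5 lower (9.64%, against 12.2%), and with venetoclax 18 passed, 5 higher and 13 lower (21.7%, against 20.8%). These shares lie near the background in each comparison, and the medians were -0.01, 0.13 and -0.12. The lists are inhibitors and IkB proteins, kinases, adaptors and ubiquitin ligases, receptors, ligands and other classical targets. In that order 46.2%, 23.1%, 17.6%, 28.6%, 33.3% and 40% passed with both drugs. With TAK-981 the shares were 7.69%, 0%, 11.8%, 7.14%, 0% and 20%. With venetoclax they were 23.1%, 23.1%, 17.6%, 28.6%, 16.7% and 20%. Each list is small, so its share is coarse.

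Inhibitors and IkB proteins numbered 13 tested genes. With both drugs 4 were higher and 2 lower, among them TNIP1, which helps TNFAIP3 restrain the pathway, at -1.51 (adjusted p = 0.00235), NFKBID, an atypical IkB protein, at 1.02, OTULIN, which removes linear ubiquitin chains, at -0.41, and TNIP2, an adaptor related to TNIP1, at 0.63. With TAK-981 1 was lower, OTULIN at -0.35, and with venetoclax 3 were lower: NLRC5, known for MHC class I control, at -1, TNIP1 at -1.14, and the deubiquitinase CYLD at -0.33. TNIP1 averaged 24.3 ± 2.44 CPM with both drugs, 46.7 ± 3.75 CPM with TAK-981, 31.8 ± 13.6 CPM with venetoclax and 69.1 ± 5.76 CPM with vehicle (SD, n = 2 each), with the venetoclax libraries furthest apart.

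Of 13 kinases, 1 was higher and 2 were lower with both drugs: RIPK1, which signals from TNF receptors, at 0.55, MAP3K8 at -0.64 and RIPK2 at -0.40. With TAK-981 the lowest adjusted p was that of MAP3K8, at -0.37 (adjusted p = 0.0941). With venetoclax MAP3K8 was at -0.78, RIPK1 at 0.46 and the IkB kinase gene CHUK at 0.36. Of 17 adaptors and ubiquitin ligases tested, 3 were lower with both drugs, namely TRAF5 at -1.23, BIRC2, the closest relative of BIRC3, at -0.57, and the paracaspase gene MALT1 at -0.66. With TAK-981 TRAF5 was at -0.74 and MALT1 at -0.56, and with venetoclax BIRC2 was at -0.38, TRAF5 at -0.46 and MYD88, the adaptor of Toll-like receptors, at 0.42.

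Among 14 receptors tested, 2 were higher and 2 lower with both drugs, among them the TNF receptor family gene TNFRSF14 at 1.23, TLR3, a receptor for double-stranded RNA, at 0.57, and IL1RAP, a co-receptor for interleukin-1, at -0.46. TNFRSF14 was also the receptor that passed with TAK-981, at 1.07, whereas with venetoclax it was at -0.88, with TLR1 at -0.75 and the interleukin-18 receptor gene IL18R1 at 0.68. Of 6 ligands tested, 1 was higher and 1 lower with both drugs, and 1 was lower with venetoclax. The lower one was each time IL1B, the gene of interleukin-1 beta, at -0.70 with both drugs and -0.42 with venetoclax. With TAK-981 the lowest adjusted p among the ligands was that of TNFSF12, at 1.42 (adjusted p = 0.0964), named after its values were seen.

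The other classical targets numbered 20 tested genes, of which 4 were higher and 4 lower with both drugs, 2 higher and 2 lower with TAK-981, and 1 higher and 3 lower with venetoclax. GADD45B, a stress-response gene, was at 1.17 with both drugs, opposite in sign to the 4 targets described above that were called there. With TAK-981 it was at 1.08. Of those 4 targets only BIRC3 (-1.14) was called with TAK-981, with TNFAIP3 at -0.23, TRAF1 at -0.45 and CXCL8 at 0.44. The level of GADD45B averaged 30.2 ± 2.9 CPM with both drugs, 28.4 ± 1.57 CPM with TAK-981, 14.5 ± 2.8 CPM with venetoclax and 13.4 ± 2.33 CPM with vehicle (SD, n = 2 each). CFLAR, which blocks death receptor signalling, was at -0.55 and -0.54 in the same comparisons. With both drugs the surface proteins CD69 and CD44 were at -0.69 and -0.42, with TAK-981 the apoptosis inhibitor gene XIAP was at 0.43 and the surface protein gene CD83 at -0.70, and with venetoclax CD69 was at -0.98 and the prostaglandin synthase gene PTGS2 at -0.97.

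Of the calls on list genes named here, those of TNIP1, RIPK1, TRAF5, BIRC2, MALT1, TNFRSF14, IL1B and GADD45B with both drugs, and of NLRC5 and CD69 with venetoclax, passed on leaving out each of the 8 libraries in turn, and no other named list gene passed in all of those fits. None changed direction.

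**Figure D4:**
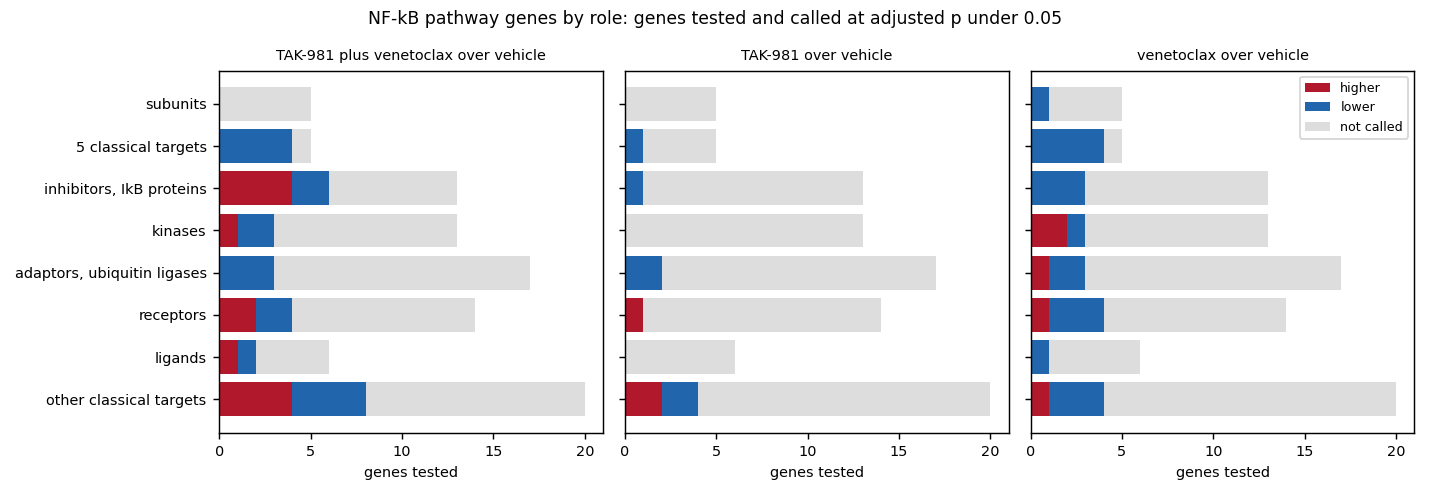
Number of genes tested in each list by role (bar length), split into genes higher, lower and not called at an adjusted p under 0.05, for TAK-981 plus venetoclax, TAK-981 and venetoclax, each over vehicle. The 5 classical targets show 4 lower genes in the first and last panel, while the other lists hold both directions or few calls.

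The genes most like TRAF1 over the 8 libraries, by Pearson correlation of log2 CPM among 9849 genes of at least 5 CPM, were PLCB4, a phospholipase (r = 0.994), TNS1, which links integrins to actin (r = 0.993), the splicing kinase CLK1 (r = 0.992), CD109, a surface protein (r = 0.992), and the mediator complex gene MED13L (r = 0.989). The libraries fall into 2 levels for these genes, with and without venetoclax, so that the correlation describes that contrast. Their log2 fold changes with both drugs over vehicle ran from -1.28 (TNS1) to -0.42 (MED13L), smaller than the -2.97 of TRAF1. TNS1 had 31.4 and 35.9 CPM with both drugs, 64.9 and 70.7 CPM with TAK-981, 34.7 and 28.1 CPM with venetoclax, and 83.6 and 79.9 CPM with vehicle.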

How the data were processed

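Whole-number read counts per gene for 8 libraries were used as the authors deposited them. Per the submitters' processing notes the tools were Trimmomatic, STAR 2.6.0, HTSeq 0.11.1 and edgeR on hg38, and the strand setting is not given in the sources used here. Sources differ on the library method, which is a SMART-Seq kit for low input per the labels and depletion of ribosomal RNA per the design text. Counts were filtered by group with filterByExpr, scaled by TMM and fitted over all 8 libraries with edgeR 4.0.16 (quasi-likelihood F test, robust, group means) in R 4.3.3, and p-values were adjusted by Benjamini and Hochberg over 12843 genes, with calls at 0.05. CPM use TMM-scaled totals, and SEs are approximate, the log2 fold change over the root of F. Alternatives used limma 3.58.1 (voom), DESeq2 1.42.0, other scaling, filters and left-out libraries. The fit was also tested on data simulated with equal spread in all 4 groups and changes in the TAK-981 group alone. That test does not cover the wider spread of the venetoclax libraries. The 10 genes and the pathway lists were chosen with earlier results of these data known. List genes were named where they passed at 5 CPM or more, up to 4 per list and comparison, and the 5 genes most correlated with TRAF1 were named. Outside this rule, MAP3K8 and TNFSF12 were named with TAK-981, where they did not pass, for the lowest adjusted p of their lists. Replicate numbers are not known to pair the libraries, and no block was used in the results. Total counts of 13204588 to 26304900 set the precision, which for CXCL8 rested on 4 to 79 counts.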

Additional observations from a re-analysis of the deposited data

How the results depend on the processing

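Of the 10 genes, the number called moved by over 1.5 times under these settings. The share of all genes called in each fit is given in brackets. With only the 4 libraries of each comparison it was 5 for TAK-981 over vehicle (32.5%), 3 for venetoclax over vehicle (1.63%) and 8 for both drugs over vehicle (45.6%). Without both venetoclax libraries it was 5 for TAK-981 (30.2%) and 8 for both drugs (47.8%). For the interaction it was 3 with no filter on low counts (6.06%) and 2 with DESeq2 (2.59%). Leaving out 1 library also moved the number by over 1.5 times in some fits of each comparison except both drugs over venetoclax. Such fits hold no spread within the group left with 1 library, and their share of all genes called moved too. Counts over all genes in the same fits, given below, moved as well. The cause of these changes was not tested.

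Reversed signs were all in values that passed no test over the 8 libraries. Some of them, such as those of REL, passed in fits that left out 1 venetoclax library, which hold no spread within that group. With limma-voom CXCL8 was 0.03 for both drugs over venetoclax. Leaving out 1 library gave, for venetoclax over vehicle, REL -0.44 to 0.28 and NFKBIA -0.01 to 0.38; for both drugs over venetoclax, CXCL8 -0.53 to 0.94, REL -0.64 to 0.08, NFKBIA -0.02 to 0.36 and TRAF1 -0.42 to 0.56; for both drugs over TAK-981, NFKB2 -0.10 to 0.03 and NFKBIA -0.18 to 0.06; and for the interaction, NFKB1 -0.02 to 0.17 and CXCL8 -0.97 to 0.49.

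Over all genes, the 4 libraries alone gave 4096 calls for TAK-981, 200 for venetoclax (63 higher and 137 lower, against 1463 higher and 1213 lower over the 8 libraries) and 5740 for both drugs over vehicle, 2497 for both drugs over venetoclax and 3746 over TAK-981. Without both venetoclax libraries the counts were 3863, 6110 and 3678 for TAK-981 over vehicle, both drugs over vehicle and both drugs over TAK-981. With no filter the last was 1875. The interaction, with 4 calls, gave 8 with DESeq2's size factors, 1098 with no filter, 300 with DESeq2 and 9 with limma-voom. Leaving out 1 library gave 336 to 3879 calls for TAK-981, 253 to 5360 for venetoclax and 1431 to 6152 for both drugs over vehicle, 2386 to 7204 for both drugs over venetoclax, 65 to 3696 over TAK-981 and 0 to 4440 for the interaction. The replicate numbers are not known to pair the libraries (correlations of deviations -0.041 to 0.375). With the replicate block 6 of the 10 genes passed for venetoclax over vehicle, RELB added, against 23.3% of all genes. The interaction had 24 calls over all genes with that block, while no other count of calls moved by over 1.5 times.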
